A study of Homo sapiens with 6 samples.

Results

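The NRF2 and glutathione defense genes described here are 9 genes chosen by name: the transcription factor gene *NFE2L2*, its inhibitor gene *KEAP1*, and the defense genes *GCLC*, *GCLM*, *SLC7A11*, *SRXN1*, *TXNRD1*, *NQO1* and *HMOX1*. All 9 were found by symbol among the 29744 genes of the deposited table, and all 9 passed the filter on low values that left 13373 genes for testing. RNA-seq covered 3 biological replicates of LNCaP cells given CDKI-73 at 250 nM, and 3 given its vehicle DMSO, each for 4 h. These cells come from a human prostate cancer that responds to androgen, and both groups grew in RPMI-1640 with fetal bovine serum, with no oxidant or NRF2 activator named in the labels. CDKI-73 inhibits CDK9, the kinase of P-TEFb that releases paused RNA polymerase II into elongation, and the study's authors name CDK1, CDK2 and CDK7 as further targets in kinase assays. The titles of the DMSO samples also carry the name CDKI-73, so the direction of every difference rests on their treatment label. The column names of the deposited values give the same groups.

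NRF2, the product of *NFE2L2*, is the transcription factor that switches on genes against oxidants and electrophiles. Without stress, KEAP1 holds NRF2 and delivers it to a CUL3 ubiquitin ligase for degradation. When KEAP1 is modified by electrophiles, NRF2 accumulates, pairs with a small MAF protein and binds antioxidant response elements, which BACH1 occupies as a repressor. Its targets make glutathione, reduce thioredoxin and peroxiredoxins, detoxify quinones and degrade heme.

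With CDKI-73 the mRNAs of both regulators, of the catalytic subunit of glutathione synthesis and of the heme-degrading enzyme fell the most, to between 24.1% and 37.7% of vehicle, while *NQO1* rose in CPM but not after scaling to 3 reference genes. As a share of the DMSO mean, the CDKI-73 mean was 24.1% for *NFE2L2*, 27.5% for *HMOX1*, 28.9% for *KEAP1* and 37.7% for *GCLC*. It was 53.3% for *SRXN1*, 64.2% for *GCLM*, 77.9% for *SLC7A11*, 88.9% for *TXNRD1* and 128% for *NQO1*. By limma on log2(CPM + 0.1), with 0.05 as the limit for the adjusted p, 9 of the 9 genes differed, against 72.4% of all tested genes. Of these, 8 were lower and 1 was higher, where 48.2% of all tested genes were lower and 24.2% higher. The 9 genes were chosen with earlier results of these data known, so their counts beside all genes are a description only. Of the 9, 4 were lower by at least 2-fold, against 22.3% of all tested genes, and 0 were higher by at least 2-fold, against 1.11%. The median log2 fold change of the 9 genes was −0.91, beside −0.18 for all tested genes. In each of the 9 genes the groups did not overlap, as was so for 75.9% of all tested genes. In 8 of them all CDKI-73 values were under the DMSO values and in 1 all were over them, against 50% and 25.9% of all tested genes. With other scalings between samples, 5 to 8 of the 9 genes were lower and 0 to 3 higher by the same test. Across those scalings 3284 to 9882 of the 13373 tested genes were lower and 395 to 8331 higher, so the shares above do not hold for them. With the reference genes 8 of the 9 were lower and 0 higher, against 9882 and 395 of the 13373.

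CPM express the reads of a gene relative to all counted reads of its sample. They are shares, so another scaling between samples moves every gene the same way, and in bulk RNA fewer cells of a type and less RNA per cell cannot be told apart. The counted reads, inferred from the step of the values, were 46.1 to 52.0 M in CDKI-73 samples and 52.9 to 60.9 M in DMSO samples. CDKI-73 replicate 3 stood apart from the others of its group, with a chi-square per gene of 30.3 and 33.3 against them, beside 3.75 between replicates 1 and 2. DMSO replicate 1 did so to a lesser degree, with 9.92 and 17.2 against the others, beside 4.98 between replicates 2 and 3. The 6 luminal prostate markers fixed for the identity check summed to 5661 to 6061 CPM in CDKI-73 samples and 5494 to 5808 CPM in DMSO samples. *KLK3* is the largest part of that sum in every sample, and markers of the list moved apart in CPM, with log2 fold changes of −1.26 for *TMPRSS2* and −0.20 for *KRT18*, and of 0.24 for *KLK3*, 0.30 for *FOLH1* and 0.37 for *KRT8*. Of the basal, stromal, immune and endothelial markers, *KRT5*, *TP63*, *DCN*, *PTPRC*, *CD3E*, *PECAM1* and *CDH5* were at 0.04 CPM or less in every sample. The others (*KRT14*, *COL1A1*, *COL3A1*, *CD68* and *VWF*) reached at most 14.9 CPM. With 1 of 3 genes reaching 1 CPM in each list, the sums were 1.10 to 1.31 CPM in CDKI-73 samples and 0.51 to 1.10 CPM in DMSO samples for the basal list, 13.1 to 15.8 and 9.84 to 10.5 CPM for the stromal list, 6.26 to 7.22 and 4.85 to 5.60 CPM for the immune list, and 10.02 to 11.9 and 10.04 to 10.1 CPM for the endothelial list. Their part in the results was not tested.

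Antioxidant response elements share the core letters TGACNNNGC, and a stricter form adds an A at its 3′ end. RefSeq promoter windows of GRCh38.p14, from 250 bases before to 50 bases after a start site, held 10 windows for 7 of the 9 genes. *HMOX1* and *SLC7A11* had no entry. Searched on either strand, the stricter form was present in 3 of the 10 windows (*GCLM*, *TXNRD1* and *KEAP1*) and in 3.18% of 35116 windows of all genes. The shorter TGACNNNGC, which lies inside every match of the stricter form, was in 4 of the 10 windows and in 13.3% of all windows. The fourth window with the shorter form belongs to the other start of *TXNRD1*. The bases just upstream of the 3 start sites with the stricter form are shown because these are its only matches in the 10 windows. Each runs 5′ to 3′ on the strand of the gene and ends at the base before the start site, with the match in capitals, which marks the stricter form as its reverse complement.
GCLM, chr1:93909431-93909530, minus strand: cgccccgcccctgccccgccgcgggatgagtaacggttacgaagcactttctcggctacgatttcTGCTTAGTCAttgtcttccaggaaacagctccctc
KEAP1, chr19:10502772-10502871, minus strand: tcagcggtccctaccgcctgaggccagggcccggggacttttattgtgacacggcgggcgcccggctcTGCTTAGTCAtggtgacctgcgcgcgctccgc
TXNRD1, chr12:104286907-104287031, plus strand: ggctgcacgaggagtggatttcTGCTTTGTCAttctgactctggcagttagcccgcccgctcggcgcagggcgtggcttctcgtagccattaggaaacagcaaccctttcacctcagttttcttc
On the opposite strand the site of *GCLM* and that of *KEAP1* read the same, TGACTAAGCA, and that of *TXNRD1* reads TGACAAAGCA. Neither the *KEAP1* nor the *TXNRD1* window is the most upstream start of its gene in the table. A match of letters is a description and not evidence of binding. Sequence outside the windows was not searched, so a gene without a match may still have an element elsewhere. The log2 fold changes of these 3 genes were −0.64, −1.79 and −0.17 (*GCLM*, *KEAP1*, *TXNRD1*), and the directions of *GCLM* and *TXNRD1* depended on scaling as given below.

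*NFE2L2* (chromosome 2 of hg38, 177230303 to 177264727, with 5 exons in its GENCODE canonical transcript) had 24.6, 24.4 and 22.9 CPM in the CDKI-73 samples, against 95.4, 101 and 102 CPM in the DMSO samples. The CDKI-73 samples lay close together and far below every DMSO sample. The limma fit gave a log2 fold change of −2.05 (SE 0.052, 95% interval −2.17 to −1.93, adjusted p = 3.0e-08), and 7.77% of all tested genes had a lower value. Its annotated exons overlap exons of *HNRNPA3* and *AGPS* on the opposite strand, and those of 1 lncRNA on each strand known only by an identifier, and the strand column counted is not given in the sources used here. *HNRNPA3* averaged 475 CPM with CDKI-73 and 402 CPM with DMSO, and *AGPS* 47.2 and 44.2 CPM, and their part in the values of *NFE2L2* was not tested.

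*KEAP1* (chromosome 19, 10486125 to 10503356, 6 exons) had 23.6, 24.3 and 25.8 CPM with CDKI-73, against 90.4, 82.3 and 82.9 CPM with DMSO. The inhibitor's mRNA was thus low in the same samples as that of the factor it holds. The fold change by limma was, on the log2 scale, −1.79 (SE 0.059, 95% interval −1.92 to −1.65, adjusted p = 7.3e-08). Within each sample the log2 ratio of *NFE2L2* to *KEAP1* averaged −0.034 ± 0.12 with CDKI-73 and 0.22 ± 0.13 with DMSO (SD, n = 3 each). The difference of −0.26 left the groups without overlap by a narrow margin, from 0.060 in the highest CDKI-73 sample to 0.079 in the lowest DMSO sample. An exact two-sided permutation test gave p = 0.1, the smallest that 3 samples against 3 allow, and adjusted p = 0.1 over the 4 ratios tested.

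**Figure D1:**
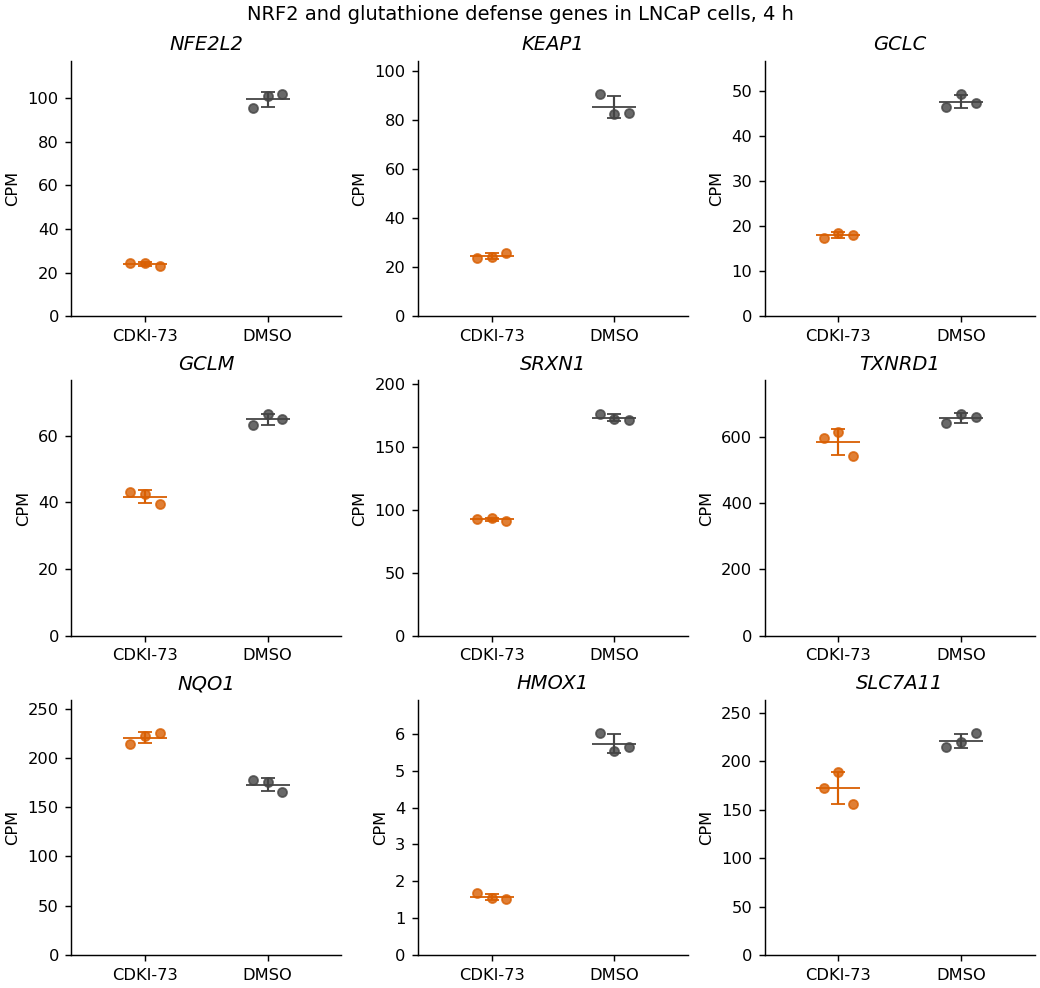
CPM of each of the 9 genes (vertical axes from 0) in the 3 CDKI-73 samples (orange) and the 3 DMSO samples (grey), with one point per sample in replicate order, a bar at the mean and whiskers of 1 SD. *NFE2L2*, *KEAP1*, *GCLC* and *HMOX1* show the widest gaps, *TXNRD1* and *SLC7A11* the widest spread among CDKI-73 samples, and *NQO1* alone is above vehicle in CPM (not after scaling to the reference genes).

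Glutathione is made from glutamate, cysteine and glycine. Glutamate-cysteine ligase performs the rate-limiting step, with *GCLC* encoding the catalytic and *GCLM* the modifier subunit, and *SLC7A11* encodes xCT, the transporter that brings in cystine. *GCLC* (chromosome 6, 53497341 to 53545101, 16 exons) had 17.4, 18.6 and 18.1 CPM with CDKI-73, against 46.4, 49.3 and 47.5 CPM with DMSO. Replicates of each group were close, with a coefficient of variation of 3.29% with CDKI-73 and 3.09% with DMSO. By limma its log2 change was −1.40 (SE 0.053, adjusted p = 1.2e-07). The antisense gene *GCLC-AS1* overlaps its exons in the annotation, as does 1 lncRNA on the same strand known only by an identifier, and neither is analysed here.

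*GCLM* (chromosome 1, 93885199 to 93909430, 7 exons) had 43.0, 42.6 and 39.4 CPM with CDKI-73, against 63.2, 66.7 and 65.0 CPM with DMSO. The limma fit gave a log2 fold change of −0.64 (SE 0.053, adjusted p = 9.5e-06), and 0.05 only after scaling to the upper quartile of all listed genes. How the subunits changed relative to each other can be read without any scaling between samples. The log2 ratio of *GCLC* to *GCLM* was −1.30, −1.19 and −1.12 in CDKI-73 samples, against −0.44, −0.43 and −0.45 in DMSO samples. As plain ratios of CPM these are 0.406, 0.438 and 0.460 against 0.735, 0.740 and 0.731. The difference in log2 ratio was −0.76, with an exact two-sided permutation p = 0.1, again the smallest possible, and it ranged from −0.80 to −0.71 when each sample was left out in turn.

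*SLC7A11* (chromosome 4, 138164097 to 138242349, 12 exons) had 172, 189 and 156 CPM with CDKI-73, against 215, 220 and 229 CPM with DMSO. CDKI-73 samples were more spread (9.68% of their mean) than DMSO samples (3.22%), and replicate 3 was the lowest. The fold change by limma was, on the log2 scale, −0.36 (SE 0.070, 95% interval −0.53 to −0.20, adjusted p = 0.0018). With trimmed mean of M-values scaling it was −0.14 (adjusted p = 0.088 from limma), with the upper quartile of tested genes −0.09 (adjusted p = 0.25 from limma), and with the upper quartile of all listed genes 0.33. *SLC3A2*, the heavy chain that pairs with xCT at the membrane, had 62.0, 66.7 and 71.0 CPM with CDKI-73, against 126, 111 and 113 CPM with DMSO. The log2 ratio of *SLC7A11* to *SLC3A2* averaged 1.37 ± 0.20 with CDKI-73 and 0.92 ± 0.14 with DMSO (SD, n = 3 each), a difference of 0.45 without overlap and with an exact permutation p = 0.1. The transporter's mRNA thus lay higher relative to its partner in the CDKI-73 samples, although both were lower in CPM.

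Sulfiredoxin, encoded by *SRXN1*, repairs overoxidized peroxiredoxins, and *TXNRD1* encodes the cytosolic thioredoxin reductase. *SRXN1* (chromosome 20, 646615 to 653200, 2 exons) had 92.4, 93.4 and 91.2 CPM with CDKI-73, against 176, 172 and 171 CPM with DMSO. Relative to its mean it had the smallest spread of the 9 genes in both groups, at 92.3 ± 1.11 CPM with CDKI-73 and 173 ± 2.81 CPM with DMSO (SD, n = 3 each). By limma its log2 change was −0.91 (SE 0.039, adjusted p = 2.3e-07), just short of 2-fold. One further annotated gene on the same strand, known only by an identifier, overlaps its exons.

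*TXNRD1* (chromosome 12, 104215779 to 104350307, 17 exons) had 597, 615 and 541 CPM with CDKI-73, against 641, 670 and 661 CPM with DMSO. The groups lay side by side, close but without overlap, and CDKI-73 replicate 3 was the lowest. The limma log2 fold change of −0.17 (SE 0.056, 95% interval −0.30 to −0.04, adjusted p = 0.023) was close to the median of all tested genes, and it turned to 0.03 with the median of gene ratios, 0.05 with the trimmed mean of M-values, 0.10 with the upper quartile of tested genes and 0.52 with that of all listed genes. Without DMSO replicate 2 the adjusted p from limma was 0.085, and without DMSO replicate 3 it was 0.066. *TXN*, which encodes the thioredoxin that this enzyme reduces, had 358, 359 and 430 CPM with CDKI-73, against 324, 294 and 279 CPM with DMSO. The log2 ratio of *TXNRD1* to *TXN* averaged 0.62 ± 0.25 with CDKI-73 and 1.14 ± 0.14 with DMSO (SD, n = 3 each), a difference of −0.52 without overlap and with an exact permutation p = 0.1. CDKI-73 replicate 3 had the lowest ratio, 0.33, and without it the difference was −0.38.

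*NQO1* encodes a quinone reductase that is a classical NRF2 target, and *HMOX1* encodes heme oxygenase-1, an inducible enzyme that BACH1 represses. *NQO1* (chromosome 16, 69709401 to 69726560, 6 exons) had 214, 222 and 225 CPM with CDKI-73, against 178, 175 and 165 CPM with DMSO. Every CDKI-73 sample lay above every DMSO sample, the reverse of the other 8 genes. The limma fit gave a log2 fold change of 0.35 (SE 0.046, 95% interval 0.25 to 0.46, adjusted p = 1.6e-04), and −0.05 (adjusted p = 0.39 from limma) when samples were scaled to *GAPDH*, *HPRT1* and *ACTB*. Those 3 reference genes of the study's qRT-PCR had log2 fold changes of 0.55, 0.32 and 0.36 in CPM.

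*HMOX1* (chromosome 22, 35381096 to 35394207, 5 exons) was the lowest of the set, with 1.67, 1.54 and 1.52 CPM with CDKI-73, against 6.02, 5.54 and 5.64 CPM with DMSO. At the inferred depths these values stand for 87, 80 and 70 reads with CDKI-73, and 367, 302 and 298 reads with DMSO. Counting error alone was 10.7% to 11.9% of a CDKI-73 value and 5.22% to 5.79% of a DMSO value, against a fall to 27.5% of vehicle. The fold change by limma was, on the log2 scale, −1.80 (SE 0.092, 95% interval −2.01 to −1.59, adjusted p = 5.6e-07). The heme oxygenase mRNA fell in the same samples in which the mRNA of its repressor *BACH1* fell further, as given below.

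**Figure D2:**
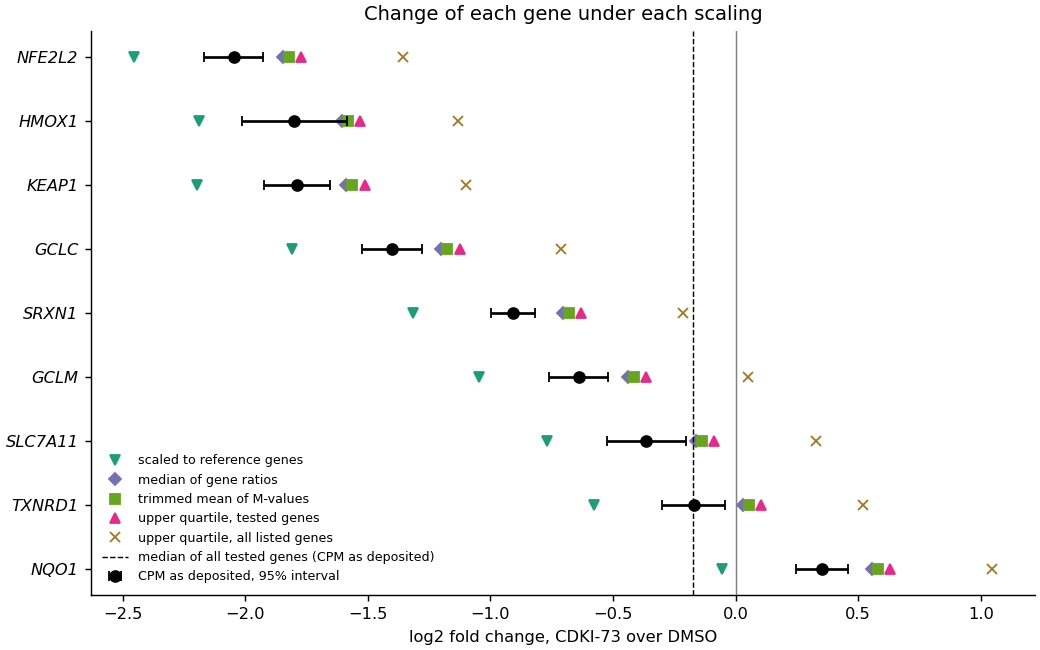
Log2 fold change of each gene, CDKI-73 over DMSO (horizontal axis), as deposited (black points with 95% intervals) and after 5 other scalings between samples (coloured symbols), with the median of all tested genes as a dashed line. *NFE2L2*, *HMOX1*, *KEAP1*, *GCLC* and *SRXN1* stay below 0 under every scaling drawn, *GCLM* and *SLC7A11* cross 0 only with the upper quartile of all listed genes, *TXNRD1* crosses it under 4 scalings, and *NQO1* under the reference genes.

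Levels can be compared between genes only per length, here as CPM per kb of the GENCODE canonical transcript, which may not be the isoform expressed. With DMSO the order of mean levels was *TXNRD1* (170 CPM per kb), *SRXN1* (68.5), *NQO1* (68.5), *NFE2L2* (40.7), *KEAP1* (33.2), *SLC7A11* (22.9), *GCLM* (13.3), *GCLC* (12.6) and *HMOX1* (3.69). The ranges over DMSO samples overlapped between *SRXN1* and *NQO1* and between *GCLM* and *GCLC*, so those neighbours were not separated by their spread. With CDKI-73 the order was *TXNRD1* (151 CPM per kb), *NQO1* (87.5), *SRXN1* (36.5), *SLC7A11* (17.9), *NFE2L2* (9.81), *KEAP1* (9.58), *GCLM* (8.53), *GCLC* (4.76) and *HMOX1* (1.01). In this group *NFE2L2* and *KEAP1* overlapped. *NQO1* and *SRXN1*, level with DMSO, were separated with CDKI-73, and *SLC7A11* stood above *NFE2L2* and *KEAP1*, where it was below them with DMSO.

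Among 10211 tested genes with a mean of at least 5 CPM, the 4 whose log2 values over the 6 samples, less the DMSO mean, lay nearest to those of *NFE2L2* by Euclidean distance were *CREB1*, *PROSER2*, *ZNF546* and *TBC1D30*. *CREB1*, a cyclic AMP-responsive transcription factor gene, averaged 26.0 CPM with CDKI-73 and 109 CPM with DMSO, at a distance of 0.052. For *PROSER2*, *ZNF546* and *TBC1D30* the distances were 0.068, 0.085 and 0.089 and the log2 fold changes −2.03, −2.09 and −2.05. The nearest of the set with enough CPM was *KEAP1*, at a distance of 0.51 and rank 373. With 2 groups of samples this measure mostly ranks genes by the size of their change.

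The pathway around the 9 genes was followed in 7 lists of 96 genes, of which 79 passed the filter. These lists too were chosen with earlier results of these data known. By limma 19 of them were lower and 47 higher (24.1% and 59.5%, where all tested genes gave 48.2% and 24.2%), and 13 did not pass. Their median log2 fold change was 0.21, beside −0.91 for the 9 genes and −0.18 for all tested genes. By at least 2-fold, 6 of the 79 were lower and 0 were higher, where all tested genes gave 22.3% and 1.11%. Scaling shifted these counts, to 39 lower and 6 higher with the reference genes, 16 and 55 by the trimmed mean of M-values, and 6 and 64 by the upper quartile of all listed genes. It shifted all genes too. In the same order, 9882, 5161 and 3284 of the 13373 tested genes were lower, and 395, 5364 and 8331 were higher.

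Of 12 tested relatives, partners and regulators of NRF2, 6 were lower and 2 higher by limma (50% and 16.7%, near the 48.2% and 24.2% of all tested genes), with a median of −0.28. *BACH1*, the repressor that competes for the same elements, had 6.08, 6.46 and 6.03 CPM with CDKI-73, against 44.7, 45.2 and 45.4 CPM with DMSO. No CDKI-73 sample came near a DMSO sample, and the log2 fold change by limma of −2.85 (SE 0.057, adjusted p = 2.0e-08) was larger in size than that of any of the 9 genes. *BTRC*, which encodes a ubiquitin ligase adaptor that also recognises NRF2, had a log2 fold change of −0.84. *MAFK*, a small MAF partner, had −0.55, and *CUL3*, the scaffold of the KEAP1 ligase, −0.45, and these 2 were 0.14 and 0.24 with the upper quartile of all listed genes. *NFE2L1* and *NFE2L3*, the relatives of *NFE2L2*, had log2 fold changes of −0.05 and 0.05 and did not pass the test (adjusted p = 0.44 and 0.47 from limma), and they were named after their values were seen.

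In the list of glutathione synthesis, recycling and breakdown, 3 of 9 were lower and 6 higher by limma in CPM as deposited (33.3% and 66.7%, against 48.2% and 24.2% of all tested genes), with a median of 0.21. *CHAC1*, which degrades glutathione and is induced by the amino acid stress response, had 0.96, 0.96 and 0.22 CPM with CDKI-73, against 6.06, 5.87 and 6.01 CPM with DMSO. CDKI-73 replicate 3 was the lowest. The log2 fold change of *CHAC1* by limma was −3.10 (SE 0.42, adjusted p = 2.2e-04). It was −2.52 without that sample, and −2.06 with a pseudocount of 1 CPM. *SLC3A2* had a log2 fold change of −0.81, *CHAC2* −0.78 and *GGT7*, of the gamma-glutamyltransferase family, 0.59. Of 14 tested peroxidases and transferases, 11 were higher and 1 was lower (78.6% and 7.14%, against 24.2% and 48.2% of all tested genes), with a median of 0.38. *GPX1* and *GPX4*, glutathione peroxidases of which the second protects membranes from lipid peroxides, had log2 fold changes of 0.60 and 0.51, *GSTK1* 0.60 and *MGST3* 0.50. After scaling to the reference genes *GPX4* and *MGST3* were 0.098 and 0.089 and did not pass (adjusted p = 0.097 and 0.17 from limma). *GSTP1*, known to be silenced in LNCaP cells, was at 0.02 to 0.04 CPM with CDKI-73 and 0 to 0.09 CPM with DMSO, and was not tested.

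Of 18 thioredoxin, peroxiredoxin, sestrin and glutaredoxin genes, 11 were higher and 5 were lower by limma, with a median of 0.22. These are 61.1% and 27.8%, against 24.2% and 48.2% of all tested genes. The largest changes were falls of genes other than the peroxiredoxins. *TXNIP*, which binds and inhibits thioredoxin, had 58.5, 60.1 and 27.6 CPM with CDKI-73, against 204, 192 and 202 CPM with DMSO. By limma its log2 change was −2.11 (SE 0.26, adjusted p = 1.3e-04), and −1.75 without CDKI-73 replicate 3. *SESN1* and *SESN2*, stress-induced sestrin genes, had log2 fold changes of −1.36 and −1.05, the second −0.73 without that sample. *SESN2* was at −0.83 with the trimmed mean of M-values, and at −0.37 with the upper quartile of all listed genes (adjusted p = 0.15 from limma). With no filter the adjusted p of *SESN2* from limma was 0.061. *PRDX5*, a peroxiredoxin gene, had 0.57, or 0.17 after scaling to the reference genes (adjusted p = 0.065 from limma).

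Each of the 6 tested NADPH-producing enzymes was higher by limma (100%, against 24.2% of all tested genes), with a median of 0.32. *TALDO1* and *TKT*, of the pentose phosphate pathway, had log2 fold changes of 0.45 and 0.32, and *ME1*, malic enzyme, 0.31, but after scaling to the reference genes they were 0.042, −0.09 and −0.10 and none of these 3 passed the test (adjusted p = 0.44, 0.15 and 0.20 from limma). Of 16 tested genes of other detoxification, export and iron handling, 8 were higher and 4 lower, with a median of 0.15. These are 50% and 25%, against 24.2% and 48.2% of all tested genes. *OSGIN1*, an oxidative stress-induced growth inhibitor gene, had 0.23, 0.13 and 0.20 CPM with CDKI-73, against 2.82, 2.59 and 2.61 CPM with DMSO. Its log2 fold change by limma was −3.29 (SE 0.17, adjusted p = 5.4e-07). At the inferred depths 1 read stands for 0.019 to 0.022 CPM in CDKI-73 samples. These *OSGIN1* values thus rest on few reads, and the size of the fall depends on the pseudocount. *CBR3*, a carbonyl reductase, had −0.79, *UGDH*, which supplies glucuronic acid for conjugation, −0.58 (0.11 with the upper quartile of all listed genes), and *FTL*, the ferritin light chain, 0.60. *FTL* and *GPX1* have processed pseudogenes with which reads could be shared. Of the 4 superoxide dismutase and catalase genes, 3 were higher (75%, against 24.2% of all tested genes), namely *SOD3* (0.56), *SOD1* (0.34) and *CAT* (0.33). After scaling to the reference genes they were 0.16, −0.06 and −0.08 and none of these 3 passed the test (adjusted p = 0.22, 0.31 and 0.24 from limma).

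**Figure D3:**
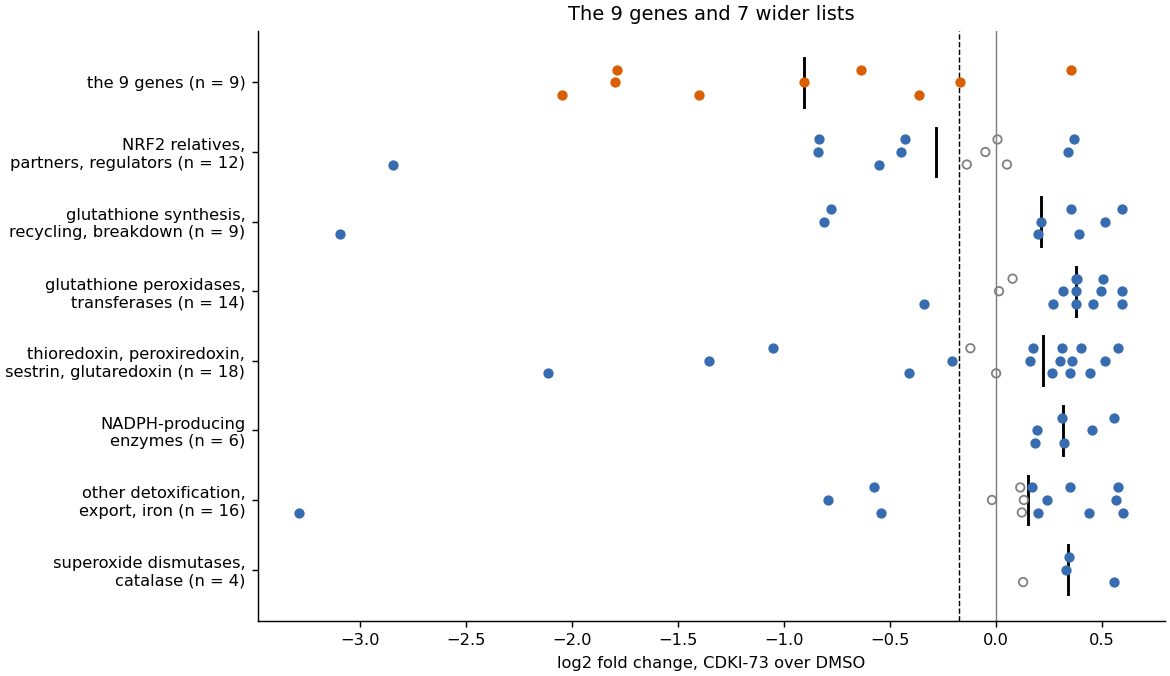
Log2 fold change, CDKI-73 over DMSO, of the 9 genes (orange) and of the tested genes of 7 wider lists (blue where the adjusted p passed, open circles otherwise), with list medians as black bars and the median of all tested genes as a dashed line. In CPM as deposited most wider lists sit just right of 0 (not after scaling to the reference genes), with a few large falls (*OSGIN1*, *CHAC1*, *BACH1*, *TXNIP*), while the 9 genes have a median of −0.91.

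**Figure D4:**
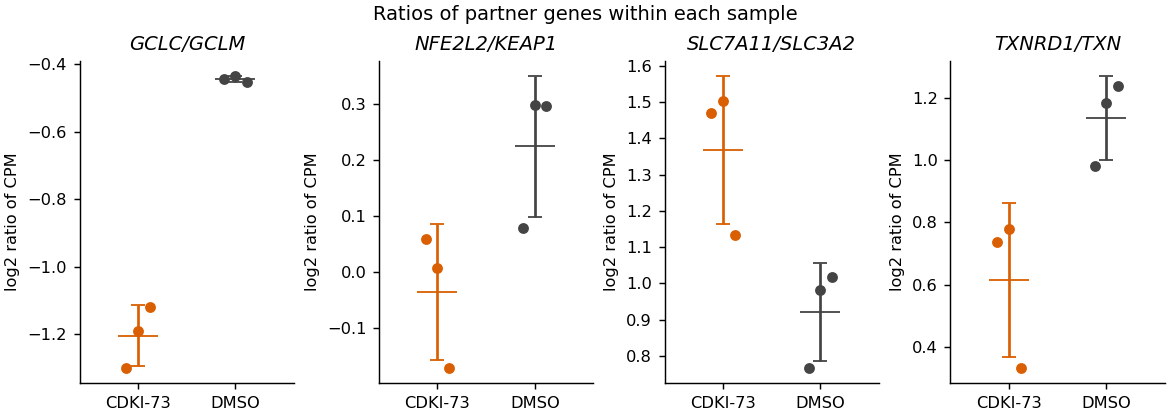
Log2 ratio of CPM of partner genes within each sample (vertical axes, which do not start at 0) in CDKI-73 (orange) and DMSO (grey) samples, with bars at the mean and whiskers of 1 SD. In each of the 4 ratios the groups do not overlap, with the widest gap relative to spread for *GCLC* over *GCLM* (SD 0.091 and 0.0094, difference −0.76).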

How the data were processed

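PolyA+ RNA of LNCaP cells was sequenced by the authors as stranded, 75-base single-end libraries, and STAR gave counts per gene on hg38. Further names in the submitters' processing notes are FastQC, edgeR version 3.3 and R version 3.2.3. The deposited values are CPM rounded by the authors to 0.01, and each column has the full sum of CPM within rounding, so no scaling factor is in them.

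The members and lists were chosen with earlier results of these data known, and the lists were written from general knowledge. CPM are not counts, so log2(CPM + 0.1) was tested with limma 3.58.1 in R 4.3.3 (lmFit, and eBayes with an intensity trend) over the 13373 genes with a mean of at least 0.5 CPM, without a covariate. P values were adjusted by Benjamini-Hochberg over all of them. Calls need an adjusted p of 0.05 or less, and at least 2-fold where stated. Fold changes on this scale understate the change of low genes. Ratios within a sample were compared by exact permutation in scipy 1.17.1. Named genes are the 9 members, up to 4 per list with the largest change among those past the adjusted p with a mean of at least 1 CPM, the 3 reference genes and the 4 nearest to *NFE2L2*. One gene that this rule names and 1 luminal marker are not reported here. Coordinates are RefSeq's (GRCh38.p14, the assembly of hg38), and exons and transcript lengths those of GENCODE 44. The fit was tested on simulated data. Counting errors cover counting only. Settings tried were pseudocounts, filters, scalings, limma without trend or robust, the replicate number as a block, and each sample left out.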

Additional observations from a re-analysis of the deposited data

How the results depend on the processing

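*NFE2L2*, *KEAP1*, *GCLC*, *HMOX1* and *SRXN1* kept their direction and passed limma's test in all 18 alternatives, with log2 fold changes of −2.45 to −1.36, −2.20 to −1.10, −1.81 to −0.71, −2.19 to −1.13 and −1.31 to −0.22. Scaling to the upper quartile of all 29744 listed genes was added after the data were seen, and it moved the median of all tested genes from −0.18 to 0.50. With it 5 of the 9 genes were lower and 3 higher (1 by at least 2-fold), *GCLM*, *TXNRD1* and *SLC7A11* were at 0.05, 0.52 and 0.33, and *MAFK*, *CUL3* and *UGDH* at 0.14, 0.24 and 0.11. The wider lists then had 6 lower and 64 higher, or 4 and 35 by at least 2-fold, and all genes 3284 lower and 8331 higher, or 1525 and 2101 by at least 2-fold. Scaling to the reference genes moved that median to −0.58, with 0 of the 9 genes higher, *NQO1* at −0.055, *TKT*, *ME1*, *SOD1* and *CAT* at −0.086, −0.10, −0.063 and −0.076, 39 genes of the wider lists lower (11 by at least 2-fold) and 6 higher, and all genes 9882 lower and 395 higher (79 by at least 2-fold). With the median of gene ratios, the trimmed mean of M-values and the upper quartile of tested genes, the median was 0.02, 0.04 and 0.09, *TXNRD1* was at 0.030, 0.055 and 0.10, and 5122, 5364 and 5760 of all genes were higher (229, 239 and 279 by at least 2-fold). Without a filter 345 of all genes were higher by at least 2-fold, and 52 were with the stricter filter or the larger pseudocount (2 and 1 CPM). The adjusted p of *TXNRD1* from limma was 0.098 with no filter, where more genes are tested. Leaving out each sample in turn left 7 to 8 of the 9 genes lower, 1 higher and 4 lower by at least 2-fold, 17 to 21 genes of the wider lists lower and 40 to 48 higher, and ratio differences of −0.80 to −0.71 (*GCLC* to *GCLM*), −0.33 to −0.19 (*NFE2L2* to *KEAP1*), 0.37 to 0.56 (*SLC7A11* to *SLC3A2*) and −0.60 to −0.38 (*TXNRD1* to *TXN*). Of all tested genes, 6088 to 6620 were then lower (2898 to 3040 by at least 2-fold) and 2622 to 3425 higher. Same-numbered samples of the groups did not deviate together (correlations of −0.29, 0.11 and −0.23), so the numbers were not taken to pair them. With the replicate number as a block, 7 of the 9 genes were lower and 1 higher, *TXNRD1* having an adjusted p of 0.051 from limma, and 18 genes of the wider lists were lower and 42 higher. Of all tested genes, 6159 were then lower and 2776 higher. The cause of these differences was not tested beyond the scaling itself.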
